A study of Homo sapiens with 12 samples.

Results

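The comparison was of 22Rv1-DR, a docetaxel-resistant human prostate cancer cell line, with 22Rv1, its docetaxel-sensitive parental line. It rests on 6 of the series' 12 arrays, chosen by their titles, 3 for each line. 22Rv1 is an established line from a prostate carcinoma xenograft. The 22Rv1 cells were cultured in RPMI medium with serum and no drug, and the 22Rv1-DR cells in the same medium with docetaxel, so that resistance and exposure to docetaxel cannot be told apart. The other 6 arrays carried DU145, a second prostate cancer line, grown without the drug, and its resistant derivative DU145-DR, grown with it. The labels do not say whether a resistant line is 1 clone or a pool, nor whether replicates came from different cultures, so p-values measure the spread between these arrays, which may be technical.

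Docetaxel is a taxane that binds the beta-tubulin subunit and keeps microtubules from disassembling, so that dividing cells stall in mitosis. Cells can withstand taxanes when the drug is pumped out, when the tubulin isotypes or the proteins on the microtubule differ, or when the signals that lead from mitotic arrest to death are weakened. The best known efflux pump is P-glycoprotein, the ATP-driven transporter encoded by ABCB1, which carries many bulky hydrophobic drugs out of the cell. The comparison asks which mRNAs differ between cells that live under docetaxel and the cells they came from.

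Replicates 1 and 2 of each line were measured on a smaller Affymetrix array type and replicate 3 on a larger one, and the 2 tables had been normalized separately. Levels are probe-set intensities. A change is 22Rv1-DR minus 22Rv1 on the log2(intensity + 16) scale, so that 1 unit is about 2-fold for a bright gene and understates the change of a dim one. Its error is the standard error (SE) of limma's fit over 2 arrays a line, and a gene passed where its p, adjusted by Benjamini-Hochberg over 9713 genes, was under 0.05. The fit had no term for the replicate number. Deviations of same-numbered 22Rv1 and 22Rv1-DR arrays from the mean of their line correlated at 0.79, and offsets that they share remain in the SE. Replicate 3 is called the third pair; it had no test, and its levels cannot be set against those of replicates 1 and 2. The lowest 5% of intensities ended at 11.5 to 12.3 on the 22Rv1 and 22Rv1-DR arrays of replicates 1 and 2, and the lowest 25% at 19.6 to 20.4. Changes from or to such values depend on that floor and on the 16 added, and fewer cells making an mRNA cannot be told apart from less of it per cell.

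The summed intensity of 12 markers of the 22Rv1 line was 13093 and 11217 in 22Rv1 and 10789 and 10268 in 22Rv1-DR. KLK2, a kallikrein protease of prostate epithelium, was at 885 and 826 in 22Rv1 and at 1218 and 1090 in 22Rv1-DR, against 169 and 86.2 in DU145. HOXB13, a homeobox factor of the prostate, was at 481 and 338 and at 267 and 217 (-0.71 ± 0.31, adjusted p = 0.316), and -1.26 on the third pair. Of the 9 that were tested 1 fell, FKBP5, and none rose. FOLH1, the prostate-specific membrane antigen, was dim on the probe set read, at 37.0 and 30.7 and at 20.4 and 20.3. A probe set of the related gene FOLH1B, of a kind prone to cross-hybridization, fell by 2.42 ± 0.22 (adjusted p = 0.000419; -1.65 on the third pair). TRPM8, an androgen-regulated channel, was at 16.6 to 19.7 on the 4 arrays. EPCAM, an epithelial adhesion molecule, was at 2419 and 2419 and at 2469 and 2469, and FOXA1, a transcription factor of luminal cells, at 750 and 843 and at 849 and 843, but both were bright in DU145 as well and do not tell the lines apart. VIM, the intermediate filament of mesenchymal cells that DU145 also makes, was low in both, at 123 and 165 and at 63.1 and 61.4. The summed intensity of 7 markers of DU145 was 662 and 574 in 22Rv1 and 775 and 732 in 22Rv1-DR, and that of 8 leukocyte markers 212 and 179 and 204 and 188. Across the 9713 genes tested, arrays of 22Rv1 correlated with each other at 0.991, those of 22Rv1-DR at 0.989, and arrays of the 2 lines at 0.953 to 0.962. Between 22Rv1-DR and the DU145 and DU145-DR arrays the correlation was 0.789 to 0.827.

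Of 9713 genes tested, 540 passed (5.56%), 304 of them higher in 22Rv1-DR (3.13%) and 236 lower (2.43%). These shares are the background for every count of genes of a class or list below. A change of at least 2 was seen in 122 of the 540. The sign was the same on the third pair for 485 of the 540 (89.8%), against 61.5% of all genes tested, and 251 moved there by at least 1 in the same direction. The pooled spread came from 8 arrays, and 182 genes (1.87%) passed also when each of the 8 was left out in turn, 95 higher (0.978%) and 87 lower (0.896%). These 182 are called stable below. On the third pair 171 of them had the same sign and 124 moved by at least 1 in that direction. The median change of all genes tested was 0.01, and 0.04 on the third pair. Nonoverlapping values between 2 arrays and 2 arrays are common, and were found for 52.4% of genes tested.

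**Figure D1:**
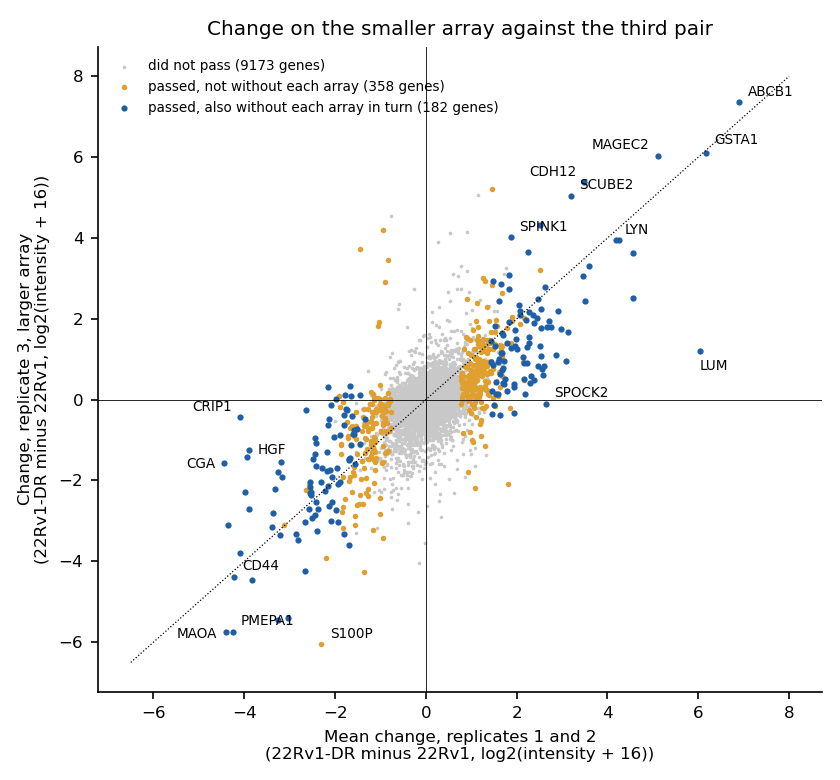
Each point is 1 of the 9713 genes tested; the x axis gives the mean change over replicates 1 and 2 and the y axis the change on the third pair, both as 22Rv1-DR minus 22Rv1 in log2(intensity + 16), and the dotted line marks equal changes. ABCB1, GSTA1 and MAGEC2 lie at the upper right near the line, while LUM, with 6.04 and 1.20, lies far below it.

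Among mRNAs of drug efflux pumps, that of ABCB1 had the largest change. Its intensity was 15.6 and 12.8 in 22Rv1 and 3984 and 3259 in 22Rv1-DR, and on the third pair 14.9 and 5078. The parental values lay within the lowest 25% of their arrays and the resistant ones among the bright genes, so that the size of the change, 6.91 ± 0.50 (adjusted p = 0.000156), depends on the floor. A second probe set, present on the larger array alone, gave 18.6 and 1663. ABCC4, which exports cyclic nucleotides and nucleotide analogues, rose from 27.5 and 32.0 to 154 and 201 (2.07 ± 0.20, adjusted p = 0.000644), and the third pair was 38.1 and 214. ABCG2, the breast cancer resistance protein, rose from 42.5 and 38.1 to 148 and 171 (1.64 ± 0.22, adjusted p = 0.00293), and the third pair, at 103 and 170.1, gave 0.64. These 3 were the only members to pass of 22 tested ABC transporters, all higher and all stable, with a list median of 0.22 (0.13 on the third pair).

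ABCC1, the multidrug resistance protein MRP1, was at 184 and 141 in 22Rv1 and at 315 and 252 in 22Rv1-DR and did not pass (0.75 ± 0.31, adjusted p = 0.264), with -0.39 on the third pair. ABCB4, the phospholipid transporter next to ABCB1, gave 0.56 ± 0.74 (adjusted p = 0.926). It was dim, at 16.7 and 23.9 in 22Rv1 and at 26.5 and 50.9 in 22Rv1-DR. ABCC2, a hepatic export pump, was too dim to be tested, at 28.2 and 44.6 against 17.0 and 18.5. None of 5 tested SLCO uptake transporters passed.

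The neighbours of ABCB1 on chromosome 7 were read as well, 10 tested genes on each side. RUNDC3B, the next one, rose from 112 and 62.7 to 613 and 355 (2.27 ± 0.32, adjusted p = 0.00405; 1.55 on the third pair). HGF (-3.89) and SEMA3C (-1.83), the farthest 2 on the other side, fell, and the remaining 17 did not pass. The median change of the 20 neighbours was 0.01. ABCB4 and CROT on one side and SLC25A40 and DBF4 beyond RUNDC3B gave 0.56, -0.47, 0.13 and 0.06, and none of these passed.

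**Figure D2:**
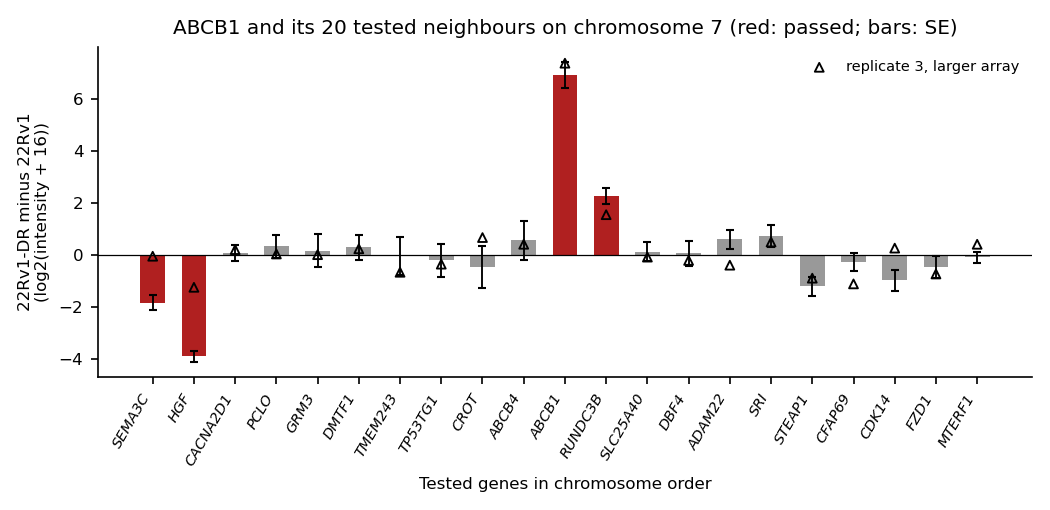
Bars give the change over replicates 1 and 2 with its SE, and open triangles the third pair, for ABCB1 and the 10 tested genes on either side of it in chromosome order; the y axis is 22Rv1-DR minus 22Rv1 in log2(intensity + 16). ABCB1 stands at 6.91 and RUNDC3B at 2.27, and the other neighbours that passed, SEMA3C and HGF, lie below 0.

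Among enzymes of drug conjugation, GSTA1, an alpha-class glutathione transferase typical of liver, went from 16 and 13.3 to 2304 and 2091 (6.17 ± 0.17, adjusted p = 1.64e-06), with 20.1 and 2487 on the third pair. It was as dark as ABCB1 in the parental cells. Its second probe set did not pass, at 61.4 and 32.0 against 79.9 and 50.2. GSTM3, a mu-class transferase, fell from 399 and 455 to 33.6 and 30.9 (-3.20 ± 0.43, adjusted p = 0.0031; -1.55 on the third pair). Of 20 tested transferases 1 rose and 3 fell. NQO1, a quinone reductase of the antioxidant response, fell from 867 and 904 to 164 and 135 (-2.45 ± 0.32, adjusted p = 0.00266; -0.94 on the third pair), while of 43 tested antioxidant genes 2 rose and 2 fell.

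Of 18 tested cytochrome P450 genes 2 rose and none fell, and both are classic targets of the aryl hydrocarbon receptor. CYP1A1 was at 70.0 and 60.5 in 22Rv1 and at 239 and 313 in 22Rv1-DR (1.84 ± 0.24, adjusted p = 0.00295), with 62.2 and 508 on the third pair. CYP1B1 was at 44.0 and 33.8 and at 252 and 182 (2.08 ± 0.30, adjusted p = 0.00501; 1.86 on the third pair). Without 22Rv1-DR replicate 1 the CYP1B1 call was lost (adjusted p = 0.0546).

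The sequences before the start sites of 4 genes, chosen after their values were seen, are given as examples of large changes between a dim and a bright level that had the same direction on both array types. They are the 250 bases upstream of the start in RefSeq's GRCh38.p14 annotation, 5′ to 3′ on the gene's strand. The window of ABCB1 is chr7:87713296-87713545 on the minus strand, and that of GSTA1 chr6:52803817-52804066 on the minus strand. That of MAGEC2 is chrX:142205291-142205540 on the minus strand, and that of CD44, which fell to the floor, chr11:35138921-35139170 on the plus strand. Other start sites of these genes were not searched. Capitals mark a match, on either strand, to TATAAA, the TATA box, or GGGCGG, the GC box.
ABCB1: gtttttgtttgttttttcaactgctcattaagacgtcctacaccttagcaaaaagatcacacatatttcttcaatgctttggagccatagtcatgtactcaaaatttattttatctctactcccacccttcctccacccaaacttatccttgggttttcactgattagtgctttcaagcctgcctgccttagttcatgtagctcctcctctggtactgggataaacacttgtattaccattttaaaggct
GSTA1: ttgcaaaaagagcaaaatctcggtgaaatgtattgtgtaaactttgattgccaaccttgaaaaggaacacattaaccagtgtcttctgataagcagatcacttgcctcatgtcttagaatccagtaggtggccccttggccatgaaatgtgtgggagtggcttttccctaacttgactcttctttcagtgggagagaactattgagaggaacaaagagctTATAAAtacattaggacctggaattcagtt
MAGEC2: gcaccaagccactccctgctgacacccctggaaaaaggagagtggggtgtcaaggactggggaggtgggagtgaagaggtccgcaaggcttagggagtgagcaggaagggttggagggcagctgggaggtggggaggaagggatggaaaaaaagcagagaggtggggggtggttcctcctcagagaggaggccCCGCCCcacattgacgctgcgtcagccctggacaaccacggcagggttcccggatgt
CD44: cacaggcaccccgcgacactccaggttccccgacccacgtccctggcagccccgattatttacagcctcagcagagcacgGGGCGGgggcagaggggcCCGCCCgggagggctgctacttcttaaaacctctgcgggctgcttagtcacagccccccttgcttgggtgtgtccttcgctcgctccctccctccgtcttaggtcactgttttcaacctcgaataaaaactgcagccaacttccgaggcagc

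The ABCB1 and GSTA1 windows are poor in G and C, at 39.2% and 40.8%, with 1 CpG each, whereas the MAGEC2 and CD44 windows are at 62.4% each, with 6 and 15 CpGs. The median over the 7893 tested genes with an entry was 64.8% and 21 CpGs. The ABCB1 window held no match to the 6 motifs searched, which were the TATA box, the GC box, the CCAAT box, the E-box CACCTG, the AP-1 site TGACTCA and the steroid receptor motif AGAACA, on both strands, none of which contains another. GGGCGG was in 65.8% of tested genes' windows, in 68.7% of those of genes that rose and in 68.2% of those that fell. TATAAA was in 6.06%, 5.76% and 10.9%, and CCAAT in 35.5%, 23.9% and 34.4%. CACCTG was in 15.7%, 13.2% and 16.7%, TGACTCA in 2.75%, 4.53% and 3.65%, and AGAACA in 7.51%, 6.17% and 4.69%.

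Of 6 tested beta-tubulins, the target of docetaxel, TUBB6 rose and none fell. It went from 662 and 635 to 1499 and 1438 (1.16 ± 0.18, adjusted p = 0.00739), and the third pair was 1252 and 2195. The smaller table holds 4 arrays of the comparison, 2 of 22Rv1 and 2 of 22Rv1-DR. The TUBB6 call was lost with any 1 of these 4 arrays left out (adjusted p = 0.0713 to 0.0916). TUBB3, the neuronal isotype often studied in taxane resistance, was at 2647 and 2778 in 22Rv1 and at 2353 and 2436 in 22Rv1-DR (-0.18 ± 0.20, adjusted p = 0.873), and its probe set is of a kind prone to cross-hybridization. TUBB2B gave -0.57 ± 0.38 (adjusted p = 0.601) and 0.95 on the third pair. TUBB4A was too dim to be tested, at 14.4 and 12.6 against 19.0 and 11.

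Of 37 tested microtubule-associated and tubulin-folding proteins 1 passed, MAP1B, a microtubule stabiliser of neurons. It fell from 1458 and 1278 to 288 and 247 (-2.29 ± 0.22, adjusted p = 0.000515), with 362 and 100.4 on the third pair. MAPT, which encodes tau, was at 53.4 and 115 and at 142 and 242 (1.08 ± 0.39, adjusted p = 0.187; 0.02 on the third pair). STMN1, the microtubule destabiliser stathmin, gave -0.72 ± 0.36 (adjusted p = 0.394). Among 66 mitosis genes 2 rose and none fell, with a list median of -0.19. KIF22, a chromosome-binding kinesin, rose from 471 and 413 to 2557 and 2369 (2.44 ± 0.28, adjusted p = 0.00135; 2.01 on the third pair). AURKB, the kinase of the chromosomal passenger complex, rose by 1.44 ± 0.26 (adjusted p = 0.0136), with 1.68 on the third pair, a call lost with any 1 of these 4 arrays left out (adjusted p = 0.0841 to 0.113).

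**Figure D3:**
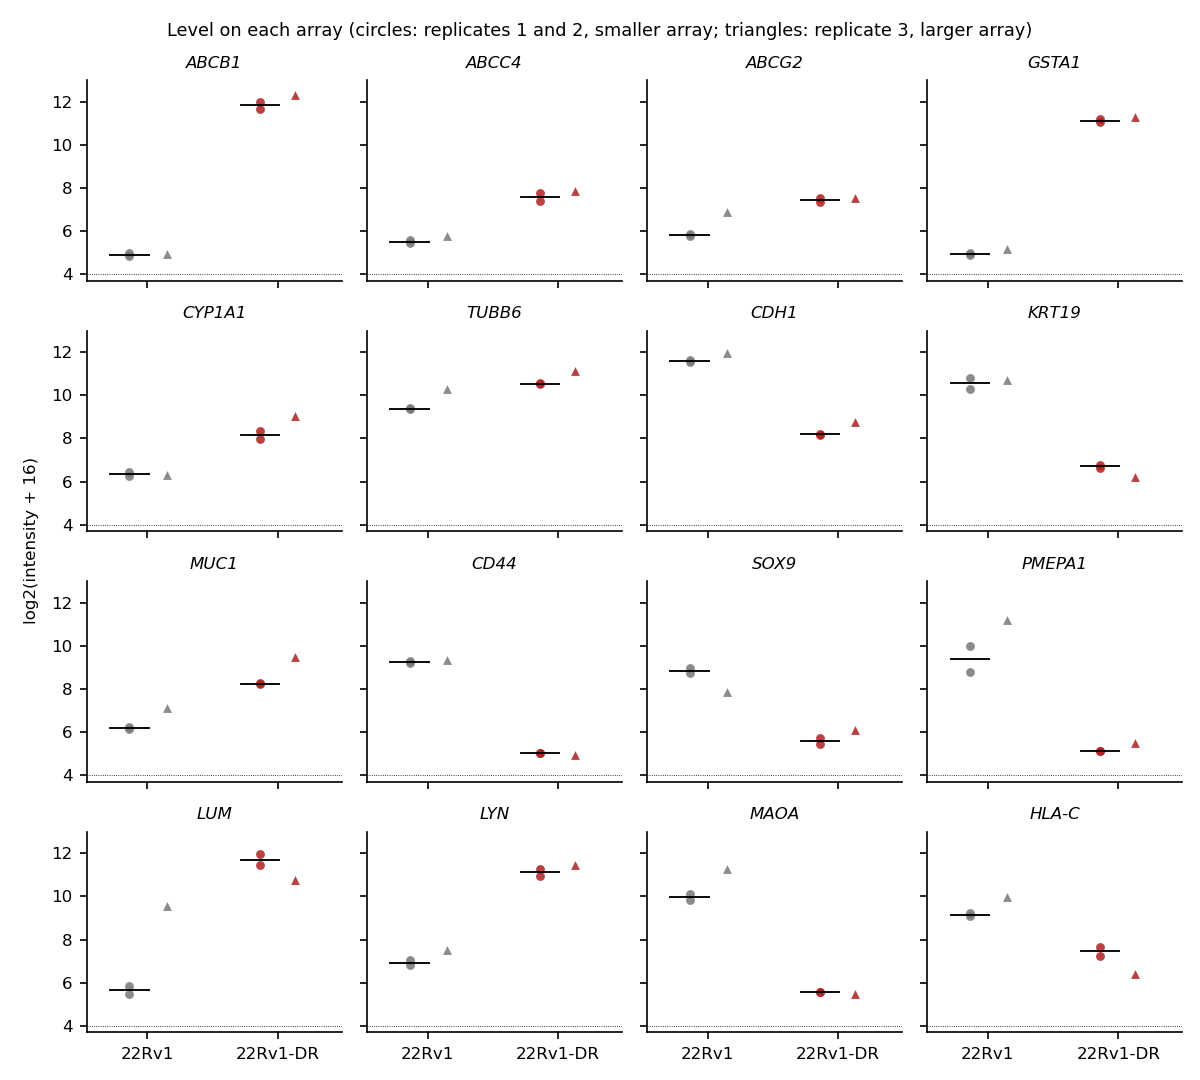
The y axis gives log2(intensity + 16) for 16 genes on each array of 22Rv1 (grey) and 22Rv1-DR (red); circles are replicates 1 and 2 with a bar at their mean, triangles are replicate 3 on the larger array, which was normalized separately, and the dotted line marks an intensity of 0. ABCB1 and GSTA1 lie near the floor in all 3 parental arrays, and the 2 triangles of LUM lie closer together than its circles, 1.20 against 6.04.

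Several genes of epithelial adhesion fell and a few rose. Of 39 tested, 6 fell and 3 rose, with a list median of -0.07 (-0.25 on the third pair). CDH1, E-cadherin, fell from 2937 and 3126 to 269 and 284 (-3.38 ± 0.23, adjusted p = 0.000116), and on the third pair it read 3929 and 425, so that it remained well above the floor. KRT19, a keratin of simple epithelia, fell from 1252 and 1758 to 84.4 and 94.4 (-3.83 ± 0.31, adjusted p = 0.000234; -4.46 on the third pair). CLDN4, a claudin of tight junctions, fell by 2.52 ± 0.18 (adjusted p = 0.00014), and TMEM30B and FXYD3, membrane proteins of epithelia, fell by 1.99 ± 0.20 (adjusted p = 0.000644) and 1.70 ± 0.19 (adjusted p = 0.0014). These 3 differed by -2.29, -2.72 and -1.49 on the third pair. ELF5, an epithelial transcription factor, fell from 204 and 126 to 12.6 and 11.7 (-2.65 ± 0.23, adjusted p = 0.000335), but the third pair was dim on both arrays, at 21.7 and 15.6.

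In the other direction, MUC1, the apical mucin of glandular epithelium, rose from 56.1 and 59.7 to 282 and 296 (2.05 ± 0.17, adjusted p = 0.000263; 2.34 on the third pair). PPL, the cornified-envelope protein periplakin, rose from 42.5 and 60.5 to 215 and 271 (1.94 ± 0.22, adjusted p = 0.00124), with 0.32 on the third pair. EPCAM gave 0.03 ± 0.21 (adjusted p = 1.00), a direction that turns, at -0.01, when arrays are set to 1 median.

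Calls among mesenchymal genes went both ways. VIM fell (-1.02 ± 0.21, adjusted p = 0.0263; -0.10 on the third pair), a call lost with any 1 of these 4 arrays left out (adjusted p = 0.0803 to 0.282). CDH2, N-cadherin, was dim throughout, at 33.8 and 40.8 and at 30.7 and 29.9 (-0.20 ± 0.18, adjusted p = 0.768). ZEB1, a repressor of CDH1, gave -0.07 ± 0.37 (adjusted p = 1.00), and its sign turned without 22Rv1 replicate 2 or 22Rv1-DR replicate 1, to 0.41 and 0.30. Of 31 tested mesenchymal genes 3 rose, FSTL1, IGFBP3 and LOXL2, and 1 fell, with a list median of 0.10. Over all genes tested 3.13% rose and 2.43% fell. FSTL1, a secreted glycoprotein, rose by 1.60 ± 0.21 (adjusted p = 0.00293) but the third pair gave only 0.13, and it did not pass when all 12 arrays were fitted together (adjusted p = 0.169). CDH12, a neuronal type II cadherin, rose from 23.9 and 12.7 to 431 and 309 (3.49 ± 0.29, adjusted p = 0.000238), and the third pair read 12.4 and 1168.

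Of 15 tested markers tied to progenitor cells 5 fell and none rose, with a list median of -0.32 (-0.36 on the third pair). CD44, the hyaluronan receptor, fell from 613 and 568 to 16.6 and 16.4 (-4.22 ± 0.19, adjusted p = 1.66e-05), with 630.3 and 15 on the third pair, so all 3 resistant arrays lay within the lowest 25%. It has 8 probe sets on both array types. All 8 gave a change below 0, and 5 passed. The 5 further probe sets of the larger array gave -1.36 to 0.14, and 4 of them were dim on both arrays of the third pair.

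SOX9, a transcription factor of ductal and stem cells, fell from 410.1 and 488 to 37.0 and 27.7 (-3.27 ± 0.24, adjusted p = 0.000168; -1.78 on the third pair). KLF4, a factor of pluripotency and differentiation, fell from 724 and 588 to 124 and 76.6 (-2.56 ± 0.25, adjusted p = 0.000648; -2.05 on the third pair). LGR5, the R-spondin receptor of intestinal stem cells, fell from 132 and 115 to 15.7 and 14.7 (-2.15 ± 0.17, adjusted p = 0.000234), but read only 25.1 and 10.4 on the third pair. None of 23 tested Notch genes passed. HES1, the repressor that Notch signalling induces, gave 0.66 ± 0.20 (adjusted p = 0.111) and -0.03 on the third pair. None of 8 tested Hedgehog genes passed either.

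22Rv1 cells respond to androgen, and genes that androgen induces in prostate cells moved both ways. Of 33 tested, 6 fell and 2 rose, with a list median of -0.37 (-0.02 on the third pair). PMEPA1, an inhibitor of TGF-beta signalling induced by androgen, fell from 996 and 422 to 18.8 and 19.0 (-4.25 ± 0.53, adjusted p = 0.00216), with 2369 and 28.6 on the third pair. SPDEF, an ETS factor of luminal and goblet cells, fell from 1152 and 1552 to 105 and 168 (-3.18 ± 0.28, adjusted p = 0.000345; -1.91 on the third pair). HPGD, which breaks down prostaglandins, fell from 1060 and 1105 to 172 and 187 (-2.49 ± 0.17, adjusted p = 0.000125; -1.47 on the third pair). AZGP1, a secreted zinc-binding glycoprotein of prostate fluid, fell by 2.57 ± 0.38 (adjusted p = 0.00551; -2.11 on the third pair), a call lost without 22Rv1-DR replicate 2 (adjusted p = 0.0519).

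The classic androgen targets did not share 1 direction. KLK3, which encodes prostate-specific antigen, was at 391 and 269 in 22Rv1 and at 226 and 146 in 22Rv1-DR (-0.78 ± 0.39, adjusted p = 0.398), but at 69.1 and 108 on the third pair. KLK2 gave 0.42 ± 0.33 (adjusted p = 0.708) and 1.28 on the third pair. FKBP5, a cochaperone of steroid receptors, fell by 0.87 ± 0.20 (adjusted p = 0.0393; -0.80 on the third pair), a call lost with any 1 of these 4 arrays left out (adjusted p = 0.158 to 0.345) and with 64 added to each intensity (0.0854). KLK11, another kallikrein, rose from 198 and 132 to 498 and 357 (1.30 ± 0.25, adjusted p = 0.0170; 2.93 on the third pair), a call lost without 22Rv1 replicate 2 (adjusted p = 0.175) or 22Rv1-DR replicate 1 (0.173). ABCC4 is also on this list.

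LUM, the collagen-binding proteoglycan lumican, rose from 28.8 and 41.9 to 2778 and 3984 (6.04 ± 0.23, adjusted p = 9.56e-06), but read 729 and 1698 on the third pair. On that pair neither array was within its lowest 25%. LUM is also a fibroblast marker. Of the 11 fibroblast markers measured 8 were tested, and 1 passed. Those tested other than LUM were above the intensity of 74.0 needed for a test only in DU145 or DU145-DR. COL1A2 was at 25.3 and 26.4 in 22Rv1 and at 26.0 and 26.4 in 22Rv1-DR. DCN, the proteoglycan decorin, was at 23.4 and 17.0 and at 76.6 and 36.5, but at 108 and 50.6 on the third pair. COL3A1, a fibrillar collagen, was at 21.3 and 17.8 and at 33.8 and 23.1 (0.32 ± 0.22, adjusted p = 0.622), with 30.1 and 49.9 on the third pair. POSTN was at 11.4 to 13.5 and FAP at 11.7 to 16.1 on these 4 arrays, within the lowest 25% of each. The summed intensity of the 11 was 277 and 265 in 22Rv1 and 3093 and 4246 in 22Rv1-DR, of which LUM made up 2778 and 3984. The part of such cells in the change of LUM was not tested.

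Of 51 tested matrix genes 6 rose and 2 fell. COL6A3, a chain of type VI collagen, rose from 31.8 and 21.3 to 402 and 294 (3.09 ± 0.23, adjusted p = 0.000157; 0.96 on the third pair). Its partner COL6A1 rose by 1.94 ± 0.18 (adjusted p = 0.000445), with 0.38 on the third pair, a call lost when its 8 probe sets were averaged (0.23, adjusted p = 0.80) and when all 12 arrays were fitted together (adjusted p = 0.050). SPOCK2, a testican proteoglycan, rose from 81.6 and 83.3 to 744 and 478 (2.64 ± 0.23, adjusted p = 0.00035), but the third pair was 734 and 685, high on both arrays. TNC, the matrix glycoprotein tenascin C, fell from 256 and 284 to 32.9 and 35.0 (-2.52 ± 0.26, adjusted p = 0.000753; -2.92 on the third pair). SPOCK1, the paralogue of SPOCK2, fell from 326 and 347 to 24.6 and 24.4 (-3.12 ± 0.53, adjusted p = 0.0104), with 523 and 47.2 on the third pair. The SPOCK1 call was lost with any 1 of these 4 arrays left out (adjusted p = 0.0558 to 0.0704).

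Proteases and their inhibitors changed too. F3, tissue factor, which starts blood clotting, fell from 402 and 501 to 34.8 and 31.1 (-3.25 ± 0.28, adjusted p = 0.000345), with 1885 and 27.3 on the third pair. SERPINE2, an inhibitor of thrombin and plasminogen activators, rose from 136 and 172 to 1010 and 1038 (2.62 ± 0.24, adjusted p = 0.000392; 2.79 on the third pair). SPINK1, a trypsin inhibitor made by some prostate cancers, was among the brightest genes, at 4804 and 4804 in 22Rv1 and 18690 and 16613 in 22Rv1-DR (1.87 ± 0.20, adjusted p = 0.000912), and read 1380 and 22537 on the third pair. ADAMTS1, a secreted metalloprotease, rose from 153 and 139 to 929 and 832 (2.47 ± 0.18, adjusted p = 0.000154; 2.49 on the third pair). Of 28 tested S100 proteins, annexins and caveolae genes 7 fell and 1 rose. S100P, a calcium-binding protein of carcinomas, fell from 3191 and 1722 to 695 and 307 (-2.30 ± 0.42, adjusted p = 0.0142), and the gap was wider on the third pair, at 8249 and 108. Its call was lost without 22Rv1 replicate 1 (adjusted p = 0.108) or 22Rv1-DR replicate 2 (0.0987). CRIP1, a small zinc-binding LIM protein, fell by 4.09 ± 0.31 (adjusted p = 0.00018) but the third pair gave only -0.43, and did not pass when all 12 arrays were fitted together (adjusted p = 0.0584).

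Hormones and ligands were among the largest falls. CGA, the alpha subunit shared by the glycoprotein hormones, fell from 3214 and 2336 to 117 and 103 (-4.46 ± 0.25, adjusted p = 4.72e-05), with 158 and 42.2 on the third pair. NMB, the bombesin-like peptide neuromedin B, fell from 1795 and 1563 to 84.4 and 106 (-3.93 ± 0.36, adjusted p = 0.000419; -1.42 on the third pair). STC1, the calcium-regulating hormone stanniocalcin, rose from 33.4 and 23.9 to 1038 and 1017 (4.56 ± 0.19, adjusted p = 1.13e-05), with 19.8 and 189 on the third pair. Of 18 tested hormones 4 fell and 2 rose. MAOA, the mitochondrial enzyme that oxidises serotonin and noradrenaline, fell from 910.2 and 1090 to 31.8 and 31.3 (-4.41 ± 0.23, adjusted p = 3.09e-05), with 2419 and 29.2 on the third pair.

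HGF, the ligand of the receptor MET, fell from 2320 and 2091 to 155 and 114 (-3.89 ± 0.21, adjusted p = 3.42e-05). All 5 HGF probe sets gave a change below 0 and 4 passed. On the third pair, however, they ran from -1.24 to 1.62, with 3 below 0 and 2 above it, so the array types gave different signs for 2 of the 5. MET itself fell from 272 and 365 to 68.6 and 79.3 (-1.88 ± 0.38, adjusted p = 0.0230), with -0.18 on the third pair, and the call was lost with any 1 of these 4 arrays left out (adjusted p = 0.0799 to 0.163). It was also lost with 64 added to each intensity (adjusted p = 0.0763) and when its probe sets were averaged, where the change was -0.51 (adjusted p = 0.158). EPHA3, an ephrin receptor, fell from 592 and 666 to 113 and 93.1 (-2.44 ± 0.21, adjusted p = 0.000278; -1.34 on the third pair). ERBB4, a receptor for neuregulins, rose by 1.32 ± 0.18 (adjusted p = 0.00367), with 1.36 on the third pair, a call lost without 22Rv1 replicate 2 (adjusted p = 0.0568) or 22Rv1-DR replicate 1 (0.0574). Over 56 receptor tyrosine kinase genes 5 rose and 6 fell.

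LYN, a SRC family kinase best known in blood cells, rose from 115 and 97.7 to 2487 and 1965 (4.19 ± 0.21, adjusted p = 2.82e-05), with 167 and 2798 on the third pair. Of 5 leukocyte markers tested none passed. All 5 were above the intensity of 74.0 needed for a test only in DU145 or DU145-DR. The pan-leukocyte gene PTPRC was at 16.9 and 16.8 in 22Rv1 and at 17.3 and 16.8 in 22Rv1-DR. The part of such cells in the change of LYN was not tested. NRP1, a co-receptor for semaphorins and vascular growth factor, fell from 72.0 and 102 to 10.3 and 10.1 (-1.96 ± 0.24, adjusted p = 0.00216; -1.69 on the third pair). IGFBP3 and IGFBP1, which bind insulin-like growth factors, both rose. IGFBP3 went from 393 and 461 to 4390 and 5293 (3.45 ± 0.21, adjusted p = 5.74e-05; 3.06 on the third pair), and IGFBP1 from 19.7 and 24.8 to 107 and 101 (1.65 ± 0.23, adjusted p = 0.00413; 2.86 on the third pair). Of 17 tested genes of that family 3 rose and none fell. SCUBE2, which releases Hedgehog ligands from cells, rose from 179.8 and 159.8 to 1468 and 1938 (3.20 ± 0.20, adjusted p = 7.47e-05), with 89.3 and 3468 on the third pair.

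DKK1, a secreted antagonist of Wnt receptors, fell from 505 and 434 to 17.3 and 12.1 (-3.98 ± 0.22, adjusted p = 4.72e-05; -2.28 on the third pair). Of 43 tested Wnt genes 5 fell and 1 rose. Cytokine receptors moved apart: IL13RA2, the decoy receptor for interleukin 13, rose from 19.7 and 15.6 to 820.3 and 744 (4.57 ± 0.32, adjusted p = 0.00014; 3.64 on the third pair). IL1R1, the signalling receptor for interleukin 1, fell from 204 and 271 to 21.3 and 34.1 (-2.54 ± 0.32, adjusted p = 0.00236; -2.35 on the third pair). The cytokine IL15 rose from 16.9 and 26.4 to 167 and 119 (2.07 ± 0.23, adjusted p = 0.00136; 2.18 on the third pair). Of 57 tested genes of this class 4 rose and 2 fell.

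Of the lists tested, that of immediate early genes and feedback genes of MAP kinase signalling had the largest share of rises, with 8 of 36, while 4 fell. Its median was 0.13, and 0.00 on the third pair. EGR1, a growth-factor-induced zinc finger protein, rose from 263 and 258 to 1287 and 1287 (2.24 ± 0.22, adjusted p = 0.000654), with 465 and 891 on the third pair, and did not pass when all 12 arrays were fitted together (adjusted p = 0.165). FOS, a subunit of AP-1, rose from 49.5 and 46.9 to 211 and 206 (1.81 ± 0.28, adjusted p = 0.00619), but on the third pair the parental array was the higher, at 304 against 58.9. The FOS call was lost without 22Rv1 replicate 2, 22Rv1-DR replicate 1 or 22Rv1-DR replicate 2 (adjusted p = 0.0538, 0.0562 and 0.0521). DUSP2 and DUSP4, phosphatases that turn off MAP kinases, moved apart. DUSP2 rose by 2.52 ± 0.36 (adjusted p = 0.00404), with 2.24 on the third pair, and DUSP4 fell from 174 and 155 to 19.8 and 16.1 (-2.41 ± 0.20, adjusted p = 0.000263; -2.53 on the third pair).

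**Figure D4:**
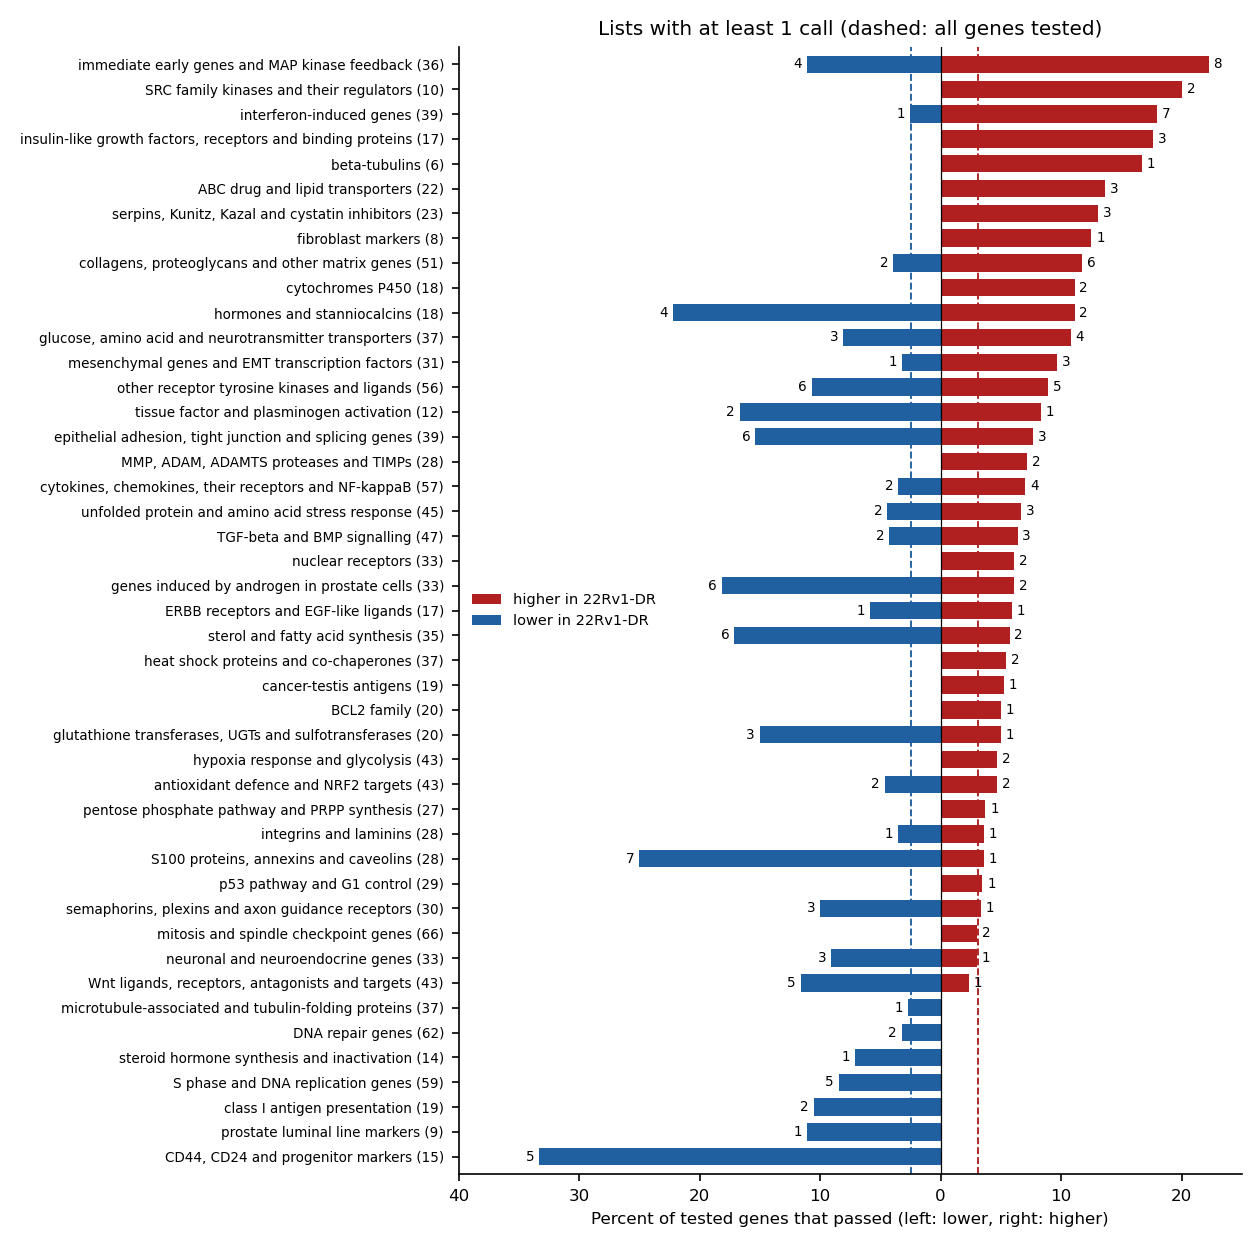
For each list with at least 1 gene that passed, bars give the percent of its tested genes that rose (red, right) or fell (blue, left) in 22Rv1-DR; the number tested is in brackets, the number that passed beside each bar, and dashed lines mark the shares over all genes tested, 3.13% and 2.43%. The progenitor list has the longest bar to the left, 5 of 15, and the immediate early list the longest to the right, 8 of 36; many lists are short.

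In metabolism, PRPS2, which makes the ribose phosphate donor for nucleotide synthesis, was among the brightest genes of 22Rv1-DR. It rose from 976 and 1136 to 14165 and 11747 (3.59 ± 0.25, adjusted p = 0.000125), with 1152 and 11505 on the third pair. It was the only gene to pass of 27 tested in the pentose phosphate and ribose phosphate pathways. IMPA1, which frees inositol from its phosphate, rose from 739 and 1024 to 9090 and 10960 (3.50 ± 0.23, adjusted p = 0.000108; 2.44 on the third pair). SLC2A10, a glucose transporter, fell from 434 and 526 to 12.6 and 13.1 (-4.10 ± 0.31, adjusted p = 0.000175), to the floor also on the third pair, at 347 and 10.3.

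Lipid synthesis genes fell more often than they rose, 6 against 2 of 35 tested, with a list median of -0.38 (-0.04 on the third pair). ACSL1, which activates long-chain fatty acids, fell from 333 and 338 to 27.5 and 25.6 (-3.05 ± 0.27, adjusted p = 0.00036), with 1361 and 16.8 on the third pair. SCD, the desaturase that makes oleate, fell from 1629 and 1872 to 292 and 276 (-2.55 ± 0.24, adjusted p = 0.00046; -2.30 on the third pair). SREBF1, the transcription factor that drives fatty acid synthesis, fell from 307 and 249 to 61.4 and 39.7 (-2.16 ± 0.25, adjusted p = 0.0016; -2.14 on the third pair). SQLE, an oxygenase of cholesterol synthesis, fell by 1.59 ± 0.19 (adjusted p = 0.00189; -0.84 on the third pair). None of 62 tested genes of oxidative phosphorylation passed, with a list median of -0.08.

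Of 19 tested genes of class I antigen presentation, 2 fell and none rose, with a list median of -0.23 (-0.24 on the third pair). HLA-C, a classical class I heavy chain, was at 580.0 and 526 in 22Rv1 and at 189 and 137 in 22Rv1-DR (-1.68 ± 0.21, adjusted p = 0.00213), with 996 and 68.1 on the third pair. Its 4 probe sets all gave a change below 0 and 3 passed. HLA-B gave -1.38 ± 0.28 (adjusted p = 0.0231; -2.58 on the third pair), a call lost with any 1 of these 4 arrays left out (adjusted p = 0.0753 to 0.200). The probe sets of both are of a kind prone to cross-hybridization, so that class I genes cannot be told apart by them. MICA, a stress-induced ligand of natural killer cells and the next gene tested along chromosome 6, fell from 109 and 140.1 to 21.3 and 19.4 (-1.94 ± 0.22, adjusted p = 0.00128; -2.09 on the third pair).

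Interferon-induced genes, by contrast, rose in 7 of 39 tested and fell in 1, with a list median of 0.13. SP100, a nuclear body protein, rose from 27.1 and 21.0 to 142 and 112 (1.83 ± 0.21, adjusted p = 0.00146; 1.93 on the third pair) and was the only stable one, but its call was lost when its 5 probe sets were averaged (adjusted p = 0.341). IFITM1, IFITM2 and IFITM3, neighbouring genes that restrict virus entry, changed by 1.64 ± 0.26, 1.22 ± 0.26 and 1.18 ± 0.25 (adjusted p = 0.00752, 0.0302 and 0.0288), and by 1.03, 0.96 and 0.88 on the third pair. The IFITM1 call was lost without 22Rv1 replicate 1, 22Rv1 replicate 2 or 22Rv1-DR replicate 1 (adjusted p = 0.0687, 0.0568 and 0.0800). Those of IFITM2 and IFITM3 were lost with any 1 of these 4 arrays left out (adjusted p = 0.117 to 0.233 and 0.107 to 0.239), and that of IFITM3 also without DU145 replicate 1 or 2 (0.0528).

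The main survival genes did not pass. BCL2L1, which encodes the survival protein BCL-XL, gave 0.12 ± 0.25, MCL1 0.19 ± 0.21 and BCL2 -0.07 ± 0.27 (adjusted p = 1.00, 0.876 and 1.00). Leaving out single arrays turned the sign of BCL2L1 (-0.06 and -0.10) and of BCL2 (0.07). HRK, a death-promoting member of the same family, rose from 27.1 and 28.4 to 150.1 and 120.3 (1.78 ± 0.24, adjusted p = 0.00316; 1.40 on the third pair) and was the only gene to pass of 20 tested, but not when its probe sets were averaged (adjusted p = 0.0960). DAPK1, a kinase of cell death signalling, rose from 23.6 and 18 to 331 and 286 (3.14 ± 0.21, adjusted p = 0.00012; 1.68 on the third pair). None of 26 tested death receptor genes passed. HSPB8, a small heat shock protein, rose from 111 and 154 to 657 and 744 (2.28 ± 0.28, adjusted p = 0.00181; 1.40 on the third pair).

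Of 59 tested S phase genes 5 fell and none rose, and 55 had a change below 0. Their median was -0.61 over replicates 1 and 2 but -0.02 on the third pair, and none of the 5 was stable. The number that fell was 17 with quantile normalization and 3 with arrays set to 1 median. It was 16 without either DU145-DR replicate and 0 with any 1 of the 4 arrays of the comparison left out. MCM2, a subunit of the replicative helicase, was at 1531 and 1722 and at 699 and 729 (-1.17 ± 0.21, adjusted p = 0.0131), and GINS2, its partner at the fork, at 1399 and 1370 and at 609 and 576 (-1.20 ± 0.22, adjusted p = 0.0147). Both calls were lost with any 1 of these 4 arrays left out (adjusted p = 0.0847 to 0.139 and 0.103 to 0.130), and the third pair gave -0.31 and -0.53.

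Other genes had changes as large. MAGEC2, a cancer-testis antigen of the X chromosome, went from 24.3 and 18.5 to 1342 and 1209 (5.11 ± 0.20, adjusted p = 9.56e-06; 6.04 on the third pair), and it was the only gene to pass of 19 tested cancer-testis genes. NR5A2, a nuclear receptor of liver and pancreas, rose from 26.5 and 28.1 to 714 and 923 (4.26 ± 0.25, adjusted p = 5.48e-05; 3.96 on the third pair). The neural adhesion molecules NRCAM and PTPRZ1 rose by 2.91 ± 0.22 and 2.98 ± 0.18 (adjusted p = 0.000176 and 6.27e-05; 2.19 and 1.74 on the third pair). PRUNE2 fell from 867 and 781 to 27.1 and 22.6 (-4.36 ± 0.22, adjusted p = 2.82e-05; -3.10 on the third pair). ADIRF, a regulator of fat cell differentiation, fell from 1499 and 1629 to 107 and 76.1 (-3.89 ± 0.23, adjusted p = 6.03e-05; -2.70 on the third pair). CHST15, a sulfotransferase of chondroitin sulfate, fell by 3.37 ± 0.20 and RFTN1, a lipid raft protein, fell by 3.33 ± 0.24 (adjusted p = 5.48e-05 and 0.000156; -2.80 and -2.20 on the third pair).

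Among 9707 placed genes, 27 pairs and 6 triplets of neighbouring tested genes passed in the same direction, and no longer run was found. The triplets were IGFBP1, IGFBP3 and TNS3, then IFITM2, IFITM1 and IFITM3, then CPS1, ERBB4 and SPAG16, then QPRT, ZG16 and KIF22, all higher, and ME3, PRSS23 and FZD4 and HLA-C, HLA-B and MICA, both lower. Of these 18 genes 9 were stable. TNS3, a focal adhesion protein, rose by 2.52 ± 0.52 (adjusted p = 0.0258), with 3.21 on the third pair, but not with any 1 of these 4 arrays left out (adjusted p = 0.108 to 0.139) or without DU145 replicate 1 or 2 (0.0535). SPAG16, a sperm flagellar protein, rose from 333 and 298 to 1489 and 1418 (2.15 ± 0.32, adjusted p = 0.00509; 1.05 on the third pair), and CPS1, the first enzyme of the urea cycle, by 1.69 ± 0.21 (adjusted p = 0.00189; 0.41 on the third pair). PRSS23, a serine protease, fell by 2.42 ± 0.21 and ME3, a malic enzyme, by 1.57 ± 0.20 (adjusted p = 0.00032 and 0.0022; -1.08 and -0.76 on the third pair).

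The change in 22Rv1 was set against that in DU145 with a test of the difference, in the same fit. It passed for 777 genes (8%), and for 307 of the 540 genes that passed in 22Rv1 (56.9%). The DU145 and DU145-DR arrays of replicates 1 and 2 had a higher floor, their lowest 25% ending at 62.2 to 76.1. Levels of the 2 lines therefore cannot be set against each other at the dim end there. ABCB1 rose in 22Rv1 by 6.91 and changed by 5.15 in DU145, a difference that did not pass (1.75 ± 0.71, adjusted p = 0.197). On the third pairs, which had no test, the larger change was in DU145, at 8.64 against 7.36 in 22Rv1. GSTA1 changed by 0.01 in DU145, and its difference was 6.16 ± 0.25 (adjusted p = 1.54e-05). The difference did not pass either for genes with values side by side in 22Rv1 and DU145 as follows: IGFBP3 (3.45 and 3.37), KRT19 (-3.83 and -3.70), F3 (-3.25 and -3.48) and NRCAM (2.91 and 2.48).

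Other genes moved in opposite directions in the 2 lines, and the third pairs did the same. STC1 changed by 4.56 in 22Rv1 and -3.65 in DU145 (the third pairs 2.51 and -3.12; difference 8.20 ± 0.27, adjusted p = 5.98e-06). CD44 changed by -4.22 and 1.87 (the third pairs -4.38 and 1.99; difference -6.09 ± 0.27, adjusted p = 2.35e-05), and SOX9 by -3.27 and 1.58 (the third pairs -1.78 and 1.07). SPOCK1 changed by -3.12 and 3.86, and DAPK1 by 3.14 and -2.48. LMO3, a LIM-domain protein, changed by 1.37 and -4.59 (the third pairs 1.24 and -4.68), and its call in 22Rv1 (adjusted p = 0.0142) was lost with any 1 of the 4 arrays of the comparison left out (0.0660 to 0.139) and with 64 added to each intensity (0.116). IFITM3 changed by 1.18 and -3.68, and the third pairs by 0.88 and -6.46. CDH1 was lower in both resistant lines, but by less in 22Rv1 (-3.38 against -5.74; difference 2.35, adjusted p = 0.00361), and EPCAM, at 0.03 in 22Rv1, changed by -2.36 in DU145 (difference 2.39, adjusted p = 0.00233). For 3 of the 10 largest differences the change lay in DU145 and the gene did not pass in 22Rv1. They were BCHE, a cholinesterase (-0.12 in 22Rv1 and -6.72 in DU145), EREG, the growth factor epiregulin (-0.07 and -5.82), and COL4A5, a basement membrane collagen (0.57 and 6.01).

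**Figure D5:**
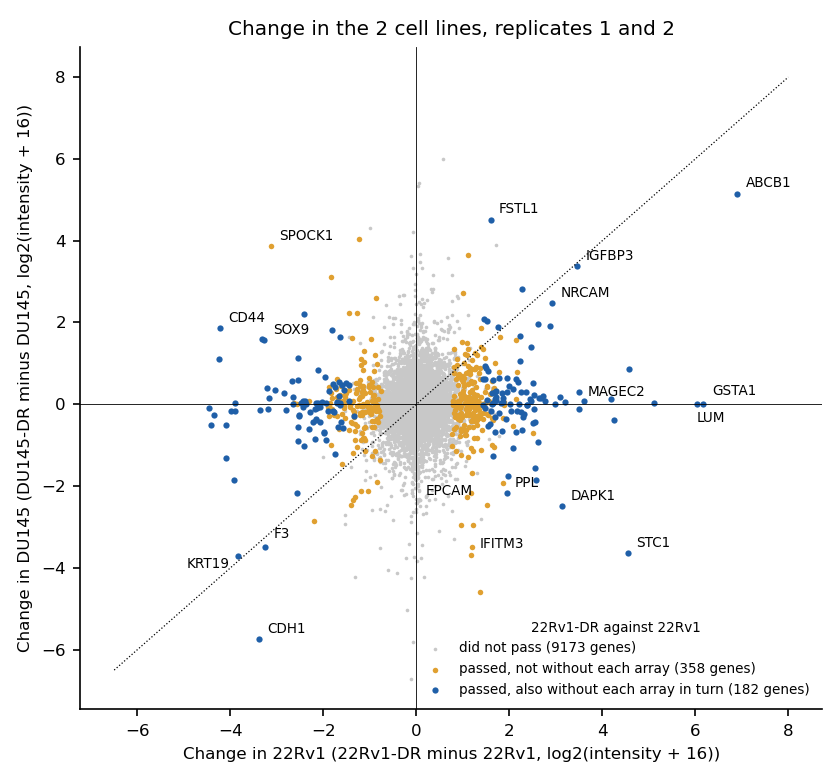
Each point is 1 of the 9713 genes tested; the x axis gives the change in 22Rv1 and the y axis that in DU145, both resistant minus parental over replicates 1 and 2 in log2(intensity + 16), coloured by the test in 22Rv1, with equal changes on the dotted line. IGFBP3 and KRT19 lie near that line, ABCB1 somewhat below it at 6.91 and 5.15, CD44 and STC1 in the corners of opposite change, and GSTA1, LUM and MAGEC2 near 0 on the y axis.

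The larger array added 7801 genes without a probe set on the smaller one, each with 1 pair of values and no replicate check. Of these, 3021 had a brighter array above the table's 60th percentile, an intensity of 64. A difference of at least 1 was seen upwards in 101 of them (3.34%) and downwards in 164 (5.43%), and by at least 2 in 28 and 29. PLPP4, a phospholipid phosphatase on chromosome 10, was at 19.0 in 22Rv1 and 1541 in 22Rv1-DR, a difference of 5.47. SLC6A19, the neutral amino acid transporter of gut and kidney, was at 76.1 and 1574 (4.11), and DCDC2, a doublecortin-domain protein that binds microtubules, at 16 and 324 (3.41). PHLDB2, a protein of cortical microtubule anchoring, was at 359.5 and 2798 (2.91), and ESCO2, an acetyltransferase of sister chromatid cohesion, at 72.0 and 657 (2.94). The antisense transcript SSTR5-AS1 (3.07), the noncoding LINC00324 (2.99), the synaptic organiser CBLN2 (2.84), the zinc finger gene ZNF827 (2.64) and the small GTPase ARL11 (2.55) were also among the 10 highest.

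In the other direction, DOCK8, a guanine nucleotide exchange factor best known in lymphocytes, was at 1305 in 22Rv1 and 12 in 22Rv1-DR, a difference of -5.56. DOCK8-AS1, the transcript antisense to it on chromosome 9, was at 580.0 and 32.0 (-3.63). TUNAR, a noncoding RNA, was at 781 and 18 (-4.55), PRR15, a proline-rich protein, at 676 and 22.3 (-4.17), and SLC2A12, a glucose transporter, at 622 and 42.2 (-3.45). CREB3L4, an endoplasmic reticulum transcription factor of prostate, was at 1898 and 148 (-3.54), NPNT, the basement membrane protein nephronectin, at 1846 and 168 (-3.34), and PRAC1, a small prostate and colon protein, at 1499 and 137 (-3.31). PPP1R3B, which directs a phosphatase to glycogen, was at 729 and 55.3 (-3.38), and RFLNB, which binds filamin, at 422 and 29.9 (-3.25). In 22Rv1-DR DOCK8 lay within the lowest 25% of the array, which ended at 17.5.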

How the data were processed

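The deposited values were intensities, 1 per probe set and array, in 2 tables that the authors normalized separately, with 22215 probe sets on the smaller array type (8 arrays) and 54613 on the larger (4 arrays). Per the submitters' processing notes the tools were MAS5 and RMA, with no version or role given. Both tables held linear values from 6.73 to 31216. Probe sets with 1 gene symbol in GEO's platform annotation were kept (19064 and 41091), probe sets with several symbols (1043 and 1801) or no symbol (2108 and 11721) were left out, and genes of the Y chromosome and X inactivation were left out. A gene was read by its probe set with the highest mean, avoiding cross-hybridizing ones where another existed. A gene was tested if the mean of 1 of the 4 groups exceeded the 40th percentile (an intensity of 74.0). The DU145 and DU145-DR arrays had a higher floor, so the counts of tested genes include some that were dim in both 22Rv1 and 22Rv1-DR. With the filter set on the 22Rv1 and 22Rv1-DR arrays alone, 620 of 8149 genes passed.

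Values were taken as log2(intensity + 16) and fitted with limma 3.58.1 (R 4.3.3; lmFit and eBayes) on the 8 arrays, with 1 mean per group and 4 groups, which share 1 estimate of spread, and Benjamini-Hochberg adjustment over 9713 genes. The line difference is the 22Rv1 change minus the DU145 change in that fit. Genes without a probe set on the smaller array were compared on 1 pair, with no test. The pipeline was tested on simulated data. Tables were handled with pandas 2.3.3 and drawn with matplotlib 3.10.9.

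Samples were grouped by their titles. The comparison, the gene lists and the other settings were chosen with earlier results of these data known. Named genes were the 15 largest rises and 15 largest falls that did not overlap between groups and moved by at least 1 in the same direction on the third pair, genes among the 5 largest changes that passed in each list and among set members of lists, not all of which are named, the 10 largest line differences, genes in runs of neighbours, and the 10 largest differences each way on the larger array alone. COL6A1, FXYD3, KLK11, NRCAM, PPL, RUNDC3B and TMEM30B (7 genes) fell outside that rule and were chosen after their values were seen. FOLH1B was also named after its values were seen, to be read beside FOLH1. The scaling, the amount added, the filter on dim genes, the choice of probe sets, the variance model, the arrays in the fit and a block for the replicate number were varied. Depth has no meaning for arrays, and their small number limits the precision.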

Additional observations from a re-analysis of the deposited data

Results flagged for a closer look

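The test of the difference between the change in 22Rv1 and that in DU145, in limma's fit with Benjamini-Hochberg adjustment, passed for 777 genes. The values below are the 22Rv1 change minus the DU145 change in log2(intensity + 16), for genes named in the results that passed it. The DU145 and DU145-DR arrays of replicates 1 and 2 had a higher floor, and its part in these differences was not tested. On replicate 3 the lowest 25% ended at 17.8 in DU145 and 16.8 in DU145-DR, against 17.1 in 22Rv1 and 17.5 in 22Rv1-DR. The third pairs were not part of the test. Those of CLDN4 were alike, at -2.29 in 22Rv1 and -2.52 in DU145, while those of CD44 were apart, at -4.38 and 1.99.

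A difference above 0 was found for STC1 (8.20), GSTA1 (6.16), BCHE (6.60), LUM (6.02), LMO3 (5.96), EREG (5.75), DAPK1 (5.62), MAGEC2 (5.07), IFITM3 (4.85), NR5A2 (4.64), IFITM2 (4.16), PPL (4.11), LYN (4.06), IL13RA2 (3.71), CDH12 (3.60), PRPS2 (3.51), TNS3 (3.21). Smaller ones above 0 were IMPA1 (3.20), SCUBE2 (3.14), ABCC4 (3.14), PTPRZ1 (2.96), COL6A3 (2.92), ABCG2 (2.90), RUNDC3B (2.89), IFITM1 (2.64), CYP1B1 (2.61), CYP1A1 (2.49), SPOCK2 (2.48), EPCAM (2.39), CDH1 (2.35), KIF22 (2.32), DUSP2 (2.29), MUC1 (2.22), SPINK1 (1.72), IL15 (1.70), BCL2L1 (1.65), AURKB (1.64), COL6A1 (1.63), IGFBP1 (1.63), SP100 (1.57), CPS1 (1.39), QPRT (1.31), ERBB4 (1.27), ADAMTS1 (1.07).

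A difference below 0 was found for SPOCK1 (-6.99), CD44 (-6.09), COL4A5 (-5.43), PMEPA1 (-5.36), RFTN1 (-4.92), SOX9 (-4.84), DUSP4 (-4.63), CGA (-4.37), PRUNE2 (-4.09), HGF (-3.93), MAOA (-3.90), DKK1 (-3.81), ADIRF (-3.72), KLF4 (-3.70), CRIP1 (-3.58), ACSL1 (-3.39), SPDEF (-3.34), CHST15 (-3.23), GSTM3 (-3.07), FSTL1 (-2.92), SLC2A10 (-2.78), ELF5 (-2.66), NRP1 (-2.62). Smaller ones below 0 were AZGP1 (-2.57), NQO1 (-2.52), HPGD (-2.51), FOLH1B (-2.46), EPHA3 (-2.45), S100P (-2.38), CLDN4 (-2.26), TNC (-2.23), LGR5 (-2.19), MAP1B (-2.11), SQLE (-2.07), NMB (-2.07), IL1R1 (-1.99), MICA (-1.96), SREBF1 (-1.77), FXYD3 (-1.73), GINS2 (-1.67), VIM (-1.66), SCD (-1.64), HES1 (-1.47), MCM2 (-1.46), PRSS23 (-1.41), TMEM30B (-1.30).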

How the results depend on the processing

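Apart from FOLH1B, 103 of the genes named in the results passed, and none of them changed sign under any of the other settings run. The count of 540 genes was 457 to 729 under other scalings, amounts added, filters, probe-set rules and variance models, and that of 777 line differences 584 to 865, except 1188 with quantile normalization. With only the 4 arrays of 22Rv1 and 22Rv1-DR 1266 genes passed. Leaving out 1 array gave 214 to 866 genes and 314 to 1280 line differences, the lone array being assumed to vary like the other groups. Without 22Rv1 or 22Rv1-DR replicates 1 or 2 the count of genes was 214 to 224, and without either DU145-DR replicate 866. Same-numbered samples share only a number in the labels. With the replicate block 2147 genes and 3080 line differences passed, including all 540, and of the 59 S phase genes 40 fell and 1 rose, against 5 and 0 without it. Deviations of same-numbered 22Rv1 and 22Rv1-DR arrays correlated at 0.79, and those across lines at 0.07 to 0.12. With the replicate block on all 12 arrays, 858 and 1978 passed, with 387 of the 540 among the former; ELF5 (adjusted p = 0.0532), SPOCK2 (0.0961), MET (0.0676), VIM (0.0819), MCM2 (0.107), GINS2 (0.142), IFITM1 (0.223), IFITM2 (0.25), IFITM3 (0.29) and FOS (0.835) did not pass there. Among genes that did not pass, signs turned for EPCAM (-0.010 with 1 common median), for BCHE (0.059 with the replicate block on all 12 arrays) and when 1 array was left out, where BCL2 ran from -0.20 to 0.067, BCL2L1 from -0.097 to 0.33 and ZEB1 from -0.54 to 0.41. The cause of these shifts was not tested. Genes at the lowest 25% of an array have no measured order there.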

Other observations

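Of the 182 genes that passed also without each of the 8 arrays in turn, 11 had the opposite sign on the third pair. Those higher over replicates 1 and 2 were SPOCK2 (2.64, and -0.10 on the third pair), RASGRP2 (1.94 and -0.34), ELK3 (1.63 and -0.37), L1CAM (1.50 and -0.14) and RGCC (1.47 and -0.36). Those lower were STK39 (-2.16 and 0.32), ACAT2 (-1.98 and 0.01), BDH1 (-1.77 and 0.11), ANXA2 (-1.66 and 0.33), AMBP (-1.64 and 0.08) and PON1 (-1.44 and 0.12). They were chosen by this sign, after their values were seen, and are given as a description. By chromosome, 13 held 5.42% higher and 0.602% lower calls among 166 tested genes, and 10 held 2.31% and 4.36% among 390.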
